A study of Mus musculus with 2 samples.

Results

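Melanocytes carry a small circuit of transcription factors from their origin in the neural crest, and 7 of its genes are described here in sorted cells of the mouse cochlear lateral wall: Mitf, Sox10, Pax3, Tfap2a, Sox6, Ets1 and Tbx2. They were picked by gene symbol from the deposited table of 4197 genes. A match on the symbol found 6 of them, and Tfap2a stood under its older symbol Tcfap2a and was found by its gene ID. In mouse and human melanocytes SOX10 and PAX3 switch on Mitf, and MITF, a basic helix-loop-helix leucine zipper protein, binds E-box sequences in front of the genes for melanin enzymes and melanosome proteins. The intermediate cells of the stria vascularis, the tissue that secretes endolymph and builds the endocochlear potential, are pigment cells of this origin, and mice without functional Mitf lack them and are deaf.

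Mice at postnatal day 0 carried a Wnt1-driven Cre recombinase, which marks cells of neural crest descent, and a Cre-dependent fluorescent reporter. The genotype is given as wnt1CRE::Ai3 for the GFP positive sample and wnt1CRE::Ai4 for the GFP negative one, while the protocol names EYFP. The lateral wall was dissociated with trypsin, and the cells were separated by fluorescence, and the labels give 1 GFP positive and 1 GFP negative sample. The driver marks every descendant of the Wnt1 lineage, so Schwann cells and other crest derivatives can fall into the GFP positive fraction beside intermediate cells. How many animals were pooled is not given in the sources used here.

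Each listed gene has a normalised read count, which is a read count divided by a size factor of its library, for GFP negative cells, and for GFP positive cells a mean of such counts made by the authors. The mean splits into whole reads of 2 libraries, called A and B, in exactly 1 way for every gene. Reads in listed genes came to 12114107 for GFP negative cells, 17120511 for A and 16584559 for B. In the authors' deposited table no adjusted p exceeds 0.00986 and no log2 ratio is smaller than 1 in size, so all 7 factors had already been selected for a difference. The GFP negative library has no replicate, so a test on these reads compares the 3 libraries and not the conditions, and the 95% intervals (exact binomial, Clopper-Pearson) cover counting error only. In bulk RNA, fewer cells of a type and less RNA per cell cannot be told apart.

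All 7 factors were higher in GFP positive cells, and in each case both GFP positive libraries lay above the GFP negative one. The log2 ratios, taken on log2(value + 1), ran from 1.66 for Ets1 to 9.58 for Pax3 with a median of 5.68, against a median of -1.34 over all listed genes. A ratio of 4-fold or more in favour of GFP positive cells, with a value of at least 5 there, was reached by 6 of the 7 factors and by 18.1% of listed genes. At 16-fold or more these numbers were 5 factors and 4.65% of listed genes. Being listed as higher at all, true of the 7 factors, held for 43.6% of listed genes. In the authors' deposited table the adjusted p of Pax3 is given as 0, and the largest of the 7 is that of Ets1, at 3.69e-69.

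**Figure D1:**
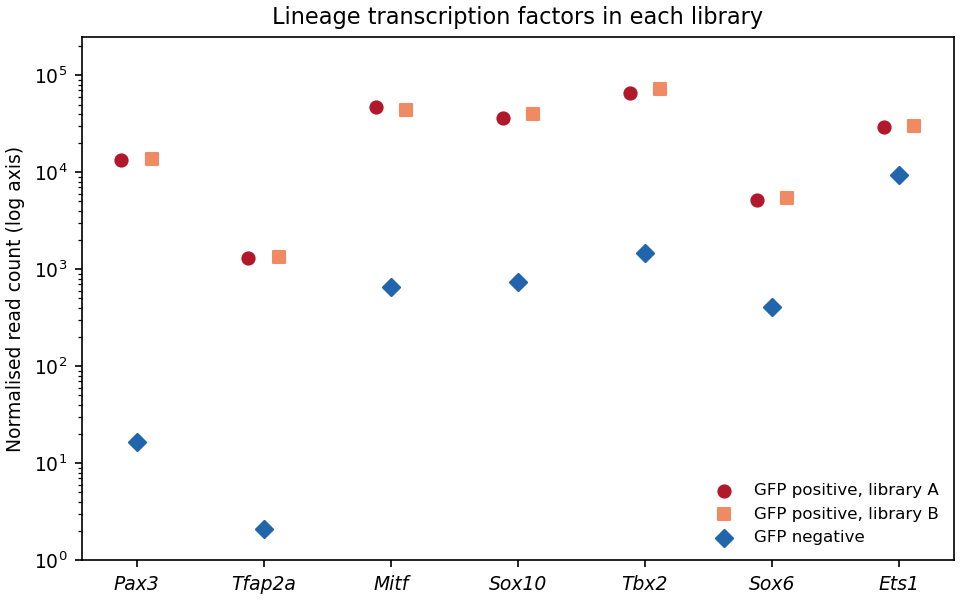
Normalised read count (log axis) of each transcription factor in GFP positive libraries A and B and in the GFP negative library, ordered by ratio. Libraries A and B lie close together for every gene, and the GFP negative value runs from 2.09 for Tfap2a to 9313 for Ets1.

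Mitf (ENSMUSG00000035158), the regulator on which melanocyte fate depends, stood at 46703 in library A, 43913 in library B and 657 in the GFP negative library. The mean of 45308 exceeds the GFP negative value by a ratio of 69.0 (95% counting interval 63.8 to 74.7), with 629 reads counted in the GFP negative library. By ratio Mitf ranked 64 among listed genes, and by GFP positive value 42. Mitf has several starts of transcription, each with its own first exon, and the most downstream one gives the melanocyte form of the protein in mouse and human. A count per gene does not tell these forms apart. The sequences before 3 annotated starts are shown because they differ in what they carry: capitals mark TGACGTCA, the cyclic AMP response element, and GGTGTGA, a T-box motif. The sequences are from RefSeq (GRCm38.p6), end 1 base before the start, and are written along the strand of the gene.
Mitf, most upstream start, chr6:97806908-97807057 (+): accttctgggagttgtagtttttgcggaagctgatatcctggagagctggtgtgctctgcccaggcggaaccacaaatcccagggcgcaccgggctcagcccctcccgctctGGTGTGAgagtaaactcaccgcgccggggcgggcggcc
Mitf, middle start, chr6:97929667-97929816 (+): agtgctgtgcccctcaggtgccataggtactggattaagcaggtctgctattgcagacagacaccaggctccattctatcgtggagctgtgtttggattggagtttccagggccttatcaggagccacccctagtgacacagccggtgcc
Mitf, most downstream start, chr6:97991533-97991782 (+): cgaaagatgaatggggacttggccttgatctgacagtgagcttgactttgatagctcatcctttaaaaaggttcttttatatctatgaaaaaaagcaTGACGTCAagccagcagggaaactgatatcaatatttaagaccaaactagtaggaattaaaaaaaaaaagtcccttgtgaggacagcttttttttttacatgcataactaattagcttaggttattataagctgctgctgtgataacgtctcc
The cyclic AMP response element began at position -153 of the most downstream start and is found in 1.79% of all 32851 promoter windows in the RefSeq table, each from 250 bases before a start to 50 after it. This element is the known route by which the melanocortin receptor raises Mitf. The windows of the 2 other starts lacked it. The T-box motif at position -38 of the most upstream start occurs in 3.98% of windows. Of the other motifs searched (on both strands), the most downstream window held no E-box (CATGTG or CACGTG), SOX motif (ACAAAG or ACAAT), AP-2 motif (GCCNNNGGC), ETS motif (CCGGAA) or paired homeodomain motif, which says only that these letters are not in this window.

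Sox10 (ENSMUSG00000033006), an HMG-box factor of the neural crest that pigment cells and Schwann cells both keep, stood at 35927 in library A, 40166 in library B and 743 in GFP negative cells. Its GFP negative value was 1.95% of the GFP positive mean. That is a ratio of 51.2 with an interval from 47.5 to 55.2, below and not overlapping that of Mitf. Sox10 is known from mouse to be expressed in otic epithelium as well. The table lists 1 of 14 marker genes of otic epithelium and marginal cells, Shroom3, a regulator of apical cell shape, at 199 against 1151. The other 13 have no value here, and the part of otic epithelium in the Sox10 reads of the GFP negative library was not tested.

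Pax3 (ENSMUSG00000004872), a paired-domain factor needed for melanoblast specification, had the largest ratio of the 7. It stood at 13458 in library A, 13638 in library B and 16.7 in the GFP negative library, where 16 reads were counted. The ratio of 811 has an interval from 499 to 1419. Only 0.262% of listed genes had a larger log2 ratio. Pax3 also acts in muscle precursors. The skeletal muscle markers listed, Tnnt3 and Des, 2 of 7, were lower in GFP positive cells, with sums of 75.4 against 1073. Over all listed genes 56.4% were lower.

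Tfap2a (ENSMUSG00000021359), the AP-2 factor of early neural crest that in mouse melanocytes also binds near MITF target genes, had the lowest GFP positive level per kilobase of exon of the 7. It stood at 1293 and 1334 in libraries A and B, and 2 reads were counted in the GFP negative library. The ratio of 629 therefore has a wide interval, from 174 to 5196, which overlaps that of Pax3 and lies above that of Mitf. Tfap2a shares exon bases with 3 antisense genes of the GRCm38 annotation, by 265, 380 and 73 bases. Whether the authors counted by strand is not given in the sources used here, so reads in these stretches are of uncertain origin.

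**Figure D2:**
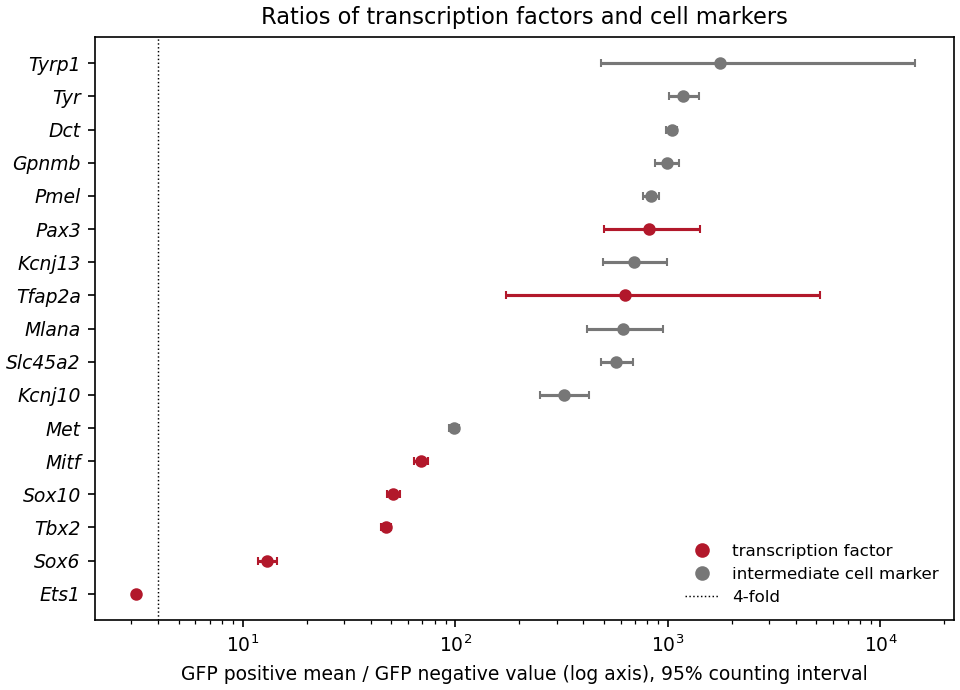
Ratio of the GFP positive mean to the GFP negative value (log axis) with its 95% counting interval, for the 7 transcription factors and 10 markers of intermediate cells. Pax3 and Tfap2a lie among the markers, Mitf, Sox10, Tbx2 and Sox6 below the lowest marker, Met, and Ets1 is left of the dotted line at 4-fold.

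Tbx2 (ENSMUSG00000000093), a T-box repressor that MITF activates in mouse and human melanocytes and that holds back senescence, had the highest GFP positive level per kilobase of exon of the 7. Its values were 66399.7 in library A, 71997 in library B and 1466 in GFP negative cells. The ratio of 47.2 (interval 44.8 to 49.8) overlaps that of Sox10. By GFP positive value it ranked 21 among the listed genes. Of 5 genes that TBX2 is known to repress, in any cell type, 3 were listed and 2 of these were lower. Over all listed genes 56.4% were lower. The cell cycle inhibitor gene Cdkn1a had 398 against 1710.3 (4.30-fold lower, interval 3.95 to 4.68), and the stress-induced gene Ndrg1 had 1264 against 3568. The melanin enzyme gene Tyrp1, also on this list, was higher, with 3665 and 2 GFP negative reads.

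Sox6 (ENSMUSG00000051910), a SOX factor without a transactivation domain that is best known from cartilage, stood at 5188 in library A, 5435 in library B and 408 in the GFP negative library. The ratio of 13.0 (11.8 to 14.4) was below that of the 5 factors above. The GFP negative share was 7.69% of the GFP positive value. RefSeq gives 6 promoter windows for Sox6, and all 6 hold ACAAAG or ACAAT, motifs that SOX proteins bind, against 42.9% of all windows. The window printed was picked from these after the matches had been seen, with these motifs and the E-box CATGTG in capitals on either strand.
Sox6, chr7:115995087-115995306 (-): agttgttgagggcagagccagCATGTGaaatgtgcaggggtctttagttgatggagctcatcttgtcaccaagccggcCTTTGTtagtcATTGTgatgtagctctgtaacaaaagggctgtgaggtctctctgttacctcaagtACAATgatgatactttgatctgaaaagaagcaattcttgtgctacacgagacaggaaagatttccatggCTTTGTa
The matches to ACAAAG began at positions -142 and -7, those to ACAAT at -131 and -76, and the E-box at -199. Windows were available for Mitf, Sox6 and Tfap2a. The 2 windows of Tfap2a held none of the motifs searched, which says only that those letters are not there.

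Ets1 (ENSMUSG00000032035), the founding ETS factor, which in mouse contributes to melanoblast development and is also strong in endothelium and lymphocytes, showed the smallest difference. It stood at 29019 in library A, 29906 in library B and 9313 in GFP negative cells, a ratio of 3.16 (3.09 to 3.24). This was below 4-fold, and 24.2% of listed genes had a larger log2 ratio. The GFP negative value was 31.6% of the GFP positive mean, the highest share of the 7. Endothelial markers were lower in GFP positive cells for 5 of 5 listed of 12, with a summed level of 1144 against 13862, and leukocyte markers for 8 of 8, with 925 against 5326, where 56.4% of all listed genes were lower. Pecam1, Cdh5, Kdr and Cldn5 were among the endothelial markers with no value here. The part of these cells in the GFP negative Ets1 level was not tested.

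Ordered by ratio, the factors ran Pax3, Tfap2a, Mitf, Sox10, Tbx2, Sox6 and Ets1. Neighbours in this order had counting intervals that did not overlap, except Pax3 with Tfap2a and Sox10 with Tbx2. Between libraries A and B the factors differed by log2 values from -0.16 for Sox10 to 0.09 for Mitf. Over the 2142 listed genes with 1000 or more GFP positive reads the median size of that difference was 0.08. The ratios with A alone and with B alone were 71.1 and 66.9 for Mitf and 48.3 and 54.03 for Sox10, so that the order of these 2 was the same in either library. The difference between the Mitf and Sox10 ratios was not tested against the spread between animals.

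Pax3 and Tfap2a were as low in GFP negative cells, relative to GFP positive ones, as the 10 pigment cell markers chosen here, and the other 5 factors were not. The 10 markers of melanocytes and intermediate cells, all listed and all higher, had GFP negative values between 0.0570% of the GFP positive mean for Tyrp1 and 1.01% for Met. Pax3, with 0.123%, and Tfap2a, with 0.159%, lay within that range. Mitf, with 1.45%, Sox10, with 1.95%, Tbx2, with 2.12%, Sox6 and Ets1 lay above it. So did some known MITF targets outside the 10 markers. These shares compare the same 3 libraries for every gene. Schwann cell markers were higher for 9 of 10 listed of 15, with a summed level of 117624 against 6912, while Mbp, Gfap, Ngfr, Egr2 and Pmp22 had no value here. Fibrocyte and otic mesenchyme markers were lower for 11 of 11 listed of 12, with 119994 against 1940623. Pericyte and smooth muscle markers were split, with 2 higher and 4 lower of 6 listed of 7. These counts stand against 43.6% higher and 56.4% lower over all listed genes. The part of Schwann cells in the GFP positive levels of Sox10, Pax3 and Tfap2a was not tested.

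**Figure D3:**
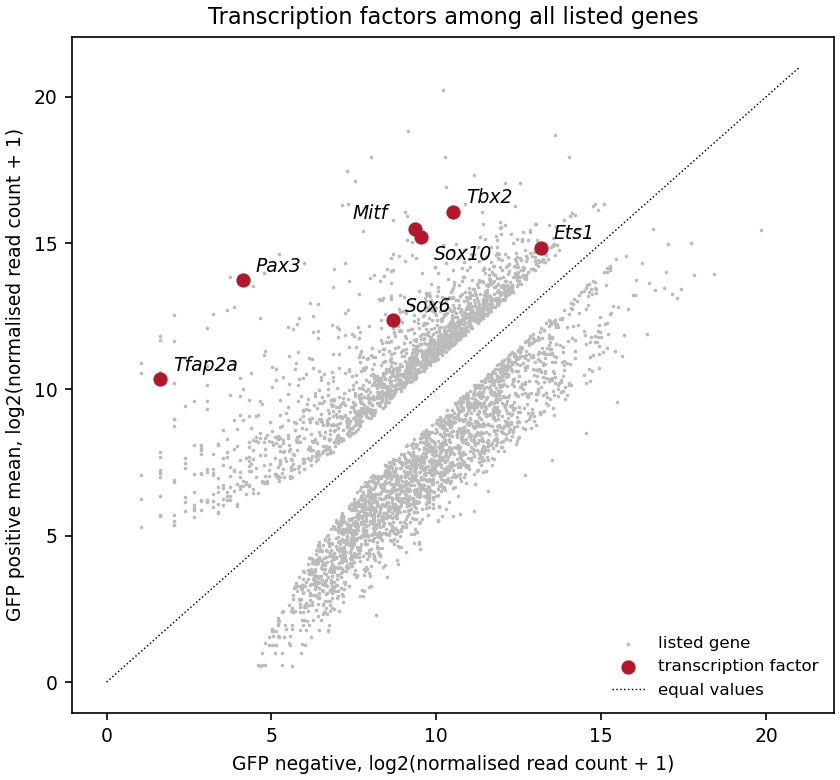
Values of all 4197 listed genes, as log2(normalised read count + 1), in GFP negative cells (horizontal) and GFP positive cells (vertical, the authors' mean), with the 7 transcription factors in red. The empty band along the line of equal values follows from the authors' limit on the log2 ratio, and of the 7 factors Ets1, with a log2 ratio of 1.66, lies nearest to it.

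Levels were set between genes as normalised reads per kilobase of annotated exon. In GFP positive cells this level was 19084 for Tbx2, 12470.1 for Sox10, 7312 for Mitf, 3476 for Ets1, 2189.8 for Pax3, 358 for Sox6 and 268 for Tfap2a. Libraries A and B gave ranges that did not overlap between any neighbours in this order, such as 349.8 and 366 for Sox6 against 264 and 272 for Tfap2a. In the GFP negative library the order of levels per kilobase was another one. Ets1 stood first with 1099, followed by Tbx2 with 404, Sox10 with 244, Mitf with 106.0, Sox6 with 27.5, Pax3 with 2.70 and Tfap2a with 0.426. With the length of the longest annotated transcript in place of all exons, a choice made after the values had been seen, the GFP positive order was the same, with 613 for Sox6 and 377 for Tfap2a.

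The genes closest to each factor in both values, by Euclidean distance between log2(value + 1) in the GFP positive mean and in the GFP negative library, were mostly genes outside the 7. Mitf and Sox10 were each other's nearest gene, at a distance of 0.31, and next to both stood Mcoln3, a cation channel of endolysosomes that is mutated in the deaf and pigment-diluted varitint-waddler mouse, at 33821 against 617. Tfap2a lay closest to Foxd3, a neural crest and Schwann precursor factor, at 1384 against 2 reads (distance 0.08), and to Gpr158, an orphan receptor. Pax3 lay closest to Stmn3, a stathmin, and to the tetraspanin gene Tspan10. Sox6 lay closest to Zc3hav1, an antiviral zinc finger protein, and Gpr137b, a lysosomal membrane protein, Ets1 to Tmem176b and Atp5g3, and Tbx2 to the secreted Wnt modulator Dkk3 and the glutathione transferase Gstp1. Distances ran from 0.08 to 0.86, and likeness in 2 values is a description only.

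Genes that MITF is known to activate were almost all higher. Of a list of 25 names 20 were listed, 19 of them higher, 17 of these by 4-fold or more, and the median log2 ratio was 7.71. Over all listed genes 43.6% were higher and 18.1% higher by 4-fold or more. Bcl2, Birc7, Diaph1, Irf4 and Cdkn2a had no value here. The list shares 8 genes with the intermediate cell markers, so the counts are not separate. Gpr143, a melanosome receptor, had the largest ratio, 1903 (651 to 9227), on 3 GFP negative reads. Trpm1, a cation channel gene of melanocytes, stood at 143576 against 185, and Slc45a2, a melanosome transporter gene, at 80164 against 140. Mc1r, the melanocortin receptor that signals to Mitf, stood at 1775 with 7 GFP negative reads. Cdk2, a cell cycle kinase gene that MITF drives in melanoma cells, was 18.6-fold higher (17.9 to 19.4), but it shares 34 exon bases with Pmel on the opposite strand. Higher by less than 4-fold were Kit, the stem cell factor receptor, with a log2 ratio of 1.61, and Hif1a, a hypoxia factor, with 1.46. Cdkn1a was the lower member.

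The melanin enzyme genes Tyr, Tyrp1 and Dct are the best known direct targets, and the sequences before their starts are shown for the site that MITF reads. Capitals mark CATGTG on either strand and, around it, the run of 10 bases that the windows of all 3 genes share. This run, GTCATGTGCT, is part of the M-box of pigment genes.
Tyr, chr7:87493513-87493632 (-): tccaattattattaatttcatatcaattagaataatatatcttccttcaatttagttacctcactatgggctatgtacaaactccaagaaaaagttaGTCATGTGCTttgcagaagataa
Tyrp1, chr4:80834093-80834212 (+): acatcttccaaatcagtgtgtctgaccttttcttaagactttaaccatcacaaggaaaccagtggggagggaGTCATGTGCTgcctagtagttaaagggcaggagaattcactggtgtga
Dct, chr14:118052247-118052496 (-): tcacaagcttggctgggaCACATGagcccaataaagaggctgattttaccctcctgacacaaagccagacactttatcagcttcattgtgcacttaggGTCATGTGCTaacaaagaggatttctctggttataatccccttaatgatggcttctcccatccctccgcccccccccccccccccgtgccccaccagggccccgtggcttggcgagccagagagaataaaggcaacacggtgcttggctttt
The shared run began at position -23 of Tyr, -48 of Tyrp1 and -152 of Dct. It occurs in 61 of the 32851 promoter windows, or 0.186%. Among the 15 higher MITF targets with a RefSeq window no others held it, and 8 held CATGTG, a motif found in 14.2% of all windows. In terms of windows, 9 of 18 held CATGTG, and 12 of 18 held CATGTG or CACGTG against 20.4% of all. This run was read from these 3 windows, so its presence in them is no finding. The same 3 genes are among those with CATGTG, and every gene counted was chosen as a known MITF target. The shares of windows with an E-box are therefore no test of MITF in these cells. A match in letters does not show binding in these cells.

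Targets of the other factors were more mixed. Of 16 genes that SOX10 is known to activate, 9 were listed, 7 higher and 2 lower, all of them 4-fold or more. Besides Tyr, Dct and Ednrb, the endothelin receptor gene of melanoblasts, the higher ones included the neuregulin receptor gene Erbb3, at 17341 against 409, and S100b, a calcium-binding protein gene of glia, at 19133 against 3339. The lower ones were Ret, the receptor of the enteric lineage, with 26.6 against 146, and Mia, which cartilage also makes, with 545 against 2920.4. Of 10 PAX3 targets 6 were listed, with 3 higher and 3 lower, again all 4-fold or more. The higher were Tyrp1, Dct and Met, and the lower were Tgfb2, Ret and Fgfr4, the last a receptor that PAX3 drives in muscle, at 564 against 12164. The median log2 ratios were 5.63 for the SOX10 list and 2.14 for the PAX3 list. Over all listed genes 18.1% were 4-fold or more higher, 36.9% 4-fold or more lower, and 55.0% one or the other.

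Other listed regulators of neural crest and melanoblasts were mostly lower, as were most listed genes. Of 25 names 13 were listed, of which 3 were higher and 10 lower. Their median log2 ratio was -2.04, against -1.34 over all listed genes. At 4-fold or more there were 2 higher and 7 lower, against 18.1% and 36.9% of all listed genes. Of all listed genes 56.4% were lower. The higher ones were Foxd3, Sox2, a Schwann precursor factor, at 231 with 11 GFP negative reads, and Sox5, the close relative of Sox6, at 3093 against 1506. Among the lower ones were Lef1, the Wnt effector that partners with MITF, with 145 against 2742 (18.9-fold lower, interval 16.8 to 21.4), and Id3, an inhibitor of helix-loop-helix factors, at 1193 against 13599.7. Twist1 and Snai1, factors of mesenchyme, had log2 ratios of -3.45 and -2.91. Zeb1, Zeb2, Msx1, Msx2, Tbx3 and Ets2 were among the 12 names with no value here.

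Within the 6 families to which the factors belong, 74 relatives were looked up and 20 were listed, 8 higher and 12 lower, close to the 43.6% higher and 56.4% lower over all listed genes. Ratios above that of the family's own factor were seen for Elf2 and Etv1 against Ets1 and for Sox2 against Sox6, of which the counting intervals of Etv1 and Sox2 overlapped those of the factors. Tfeb, the lysosomal regulator closely related to Mitf, was the 1 listed relative of 3 in its family, at 9473 against 845, which is 11.2-fold higher (10.5 to 12.05). Among SOX genes, Sox8 and Sox9, the relatives of Sox10 in the SOXE group, went the other way: Sox8 stood at 138 against 2244 and Sox9, the cartilage factor, at 1949 against 8106. Sox21 stood at 58.0 with 6 GFP negative reads. The endothelial factor Sox18 had a log2 ratio of -2.35, and Sox12 one of -1.25, or 0.07 once ratios are centred on the median gene. None of the 8 other PAX genes or the 4 other AP-2 genes was listed.

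Relatives of Ets1 and Tbx2 included markers of other tissues. Of 7 listed ETS genes 3 were higher, Elf2, with 18833 against 3441, Etv1, with 7317 against 2172, and Elf1, with 3270 against 1201, and 4 were lower. The lower ones were the endothelial factors Fli1 and Erg, with log2 ratios of -4.04 and -3.04, the leukocyte factor Spi1, with -2.39, and Etv4, a target of fibroblast growth factor signals, with -1.32. Of 5 listed T-box genes 4 were lower, led in level by Tbx18, the otic mesenchyme factor, at 2708 against 37137. Tbx1, Tbx15 and Tbx21 had log2 ratios of -2.64, -2.21 and -3.82, the last on 3 GFP positive reads. Tbx4 was higher, at 246 against 67.9. Over all listed genes 43.6% were higher and 56.4% lower, which is close to the ETS counts.

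**Figure D4:**
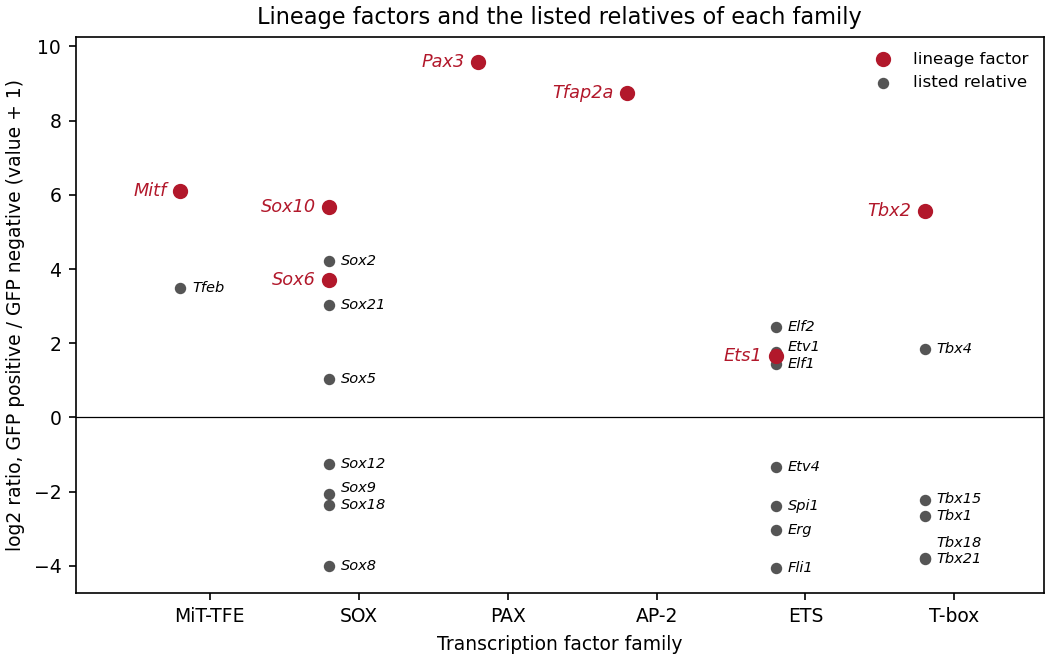
Log2 ratio of GFP positive over GFP negative cells, on log2(value + 1), for the 7 lineage factors in red and for every listed relative of the same family in grey. The PAX and AP-2 families have no listed relative, the T-box family spans from 5.56 for Tbx2 to -3.82 for Tbx21, and Sox12 (-1.25) turns to 0.07 once ratios are centred on the median gene.

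Of 21 receptors and cofactors that act on these factors 9 were listed, 7 higher and 2 lower, where 43.6% of all listed genes were higher. The other 12, such as Creb1, Ep300, Smarca4 and Ctnnb1, had no value here. Ednrb stood at 252487 against 1229. Kctd1, a repressor of AP-2 proteins, stood at 4416 against 318, a ratio of 13.9 (12.4 to 15.6), and Cited1, a transcriptional coactivator of pigment cells, at 5993 against 789. Cited2, which assists AP-2 proteins, was 3.76-fold higher (3.52 to 4.01). The lower ones were Cited4, at 70.6 against 544, and Lef1.

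Centring on the median listed gene used the genes with values of at least 5 in both groups. It adds 1.31 to every log2 ratio and turns 761 higher and 1549 lower genes at 4-fold or more into 1831 and 466. As all listed genes had been selected for a difference, their median does not mark genes without a change. Of the list genes, Myc, from the lineage regulators, and Sox12 changed direction, to log2 ratios of 0.07 each.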

How the data were processed

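RNA of sorted GFP positive and GFP negative cells was sequenced after TruSeq library preparation, per the labels' protocols. The aligner STAR and the build mm9 are named in the submitters' processing notes. How reads were counted, scaled and tested, and with which annotation, the sources used here do not say. The deposited table gives a signal column for GFP negative cells and one of averages for GFP positive cells, the fold (ratio) and log2 of the fold, and p-values before and after adjustment, per the file headers.

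The deposited signal values are read counts divided by size factors of 0.958 (GFP negative), 1.07 (A) and 0.991 (B). In the GFP negative column 100% of values were whole reads within 1e-06 reads. Of the averages 100% had exactly 1 pair of whole numbers within a relative tolerance of 1e-13, and 0.0477% of averages altered by a relative 1e-09 had a pair. The split was tested on simulated data. The labels tie A and B to no sample, and the title of the GFP positive sample carries 68K whereas both value columns carry 180K, so no SD is given. The labels do not say whether the libraries came from separate animals.

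Names came from gene IDs (4064 of 4197 matched GENCODE M21). Lengths, overlaps and promoters are of GRCm38, not mm9. Ratios are plain ratios of values, and calls use log2(value + 1), a threshold of 4-fold and a minimum of 5. Python 3.11.15, scipy 1.17.1 and edgeR 4.0.16 were used. The text names the 7 factors, the 2 genes nearest to each, the 6 extremes in each direction of each list, and every listed relative. Trpm1, Slc45a2, Mc1r, Cdk2, Kit, Hif1a, S100b, Myc, Tnnt3 and Des were named after their values were seen. The cyclic AMP response element and the run shared by 3 melanin enzyme genes were searched after the windows had been seen. Some list genes are not reported here. Members and lists were chosen with earlier results of these data known.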

Additional observations from a re-analysis of the deposited data

How the results depend on the processing

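All 56 recomputed log2 ratios of the 7 factors kept their sign over the alternatives run (pseudocounts of 0 and 5, the listed total, edgeR TMM factors, centring, library A or B alone, and edgeR's fit). They ranged from 5.74 to 7.42 for Mitf, 5.31 to 6.99 for Sox10, 9.21 to 10.89 for Pax3, 7.54 to 10.05 for Tfap2a, 3.33 to 5.01 for Sox6, 1.29 to 2.97 for Ets1 and 5.19 to 6.87 for Tbx2. As the table holds only genes past a log2 ratio of 1 in size, a kept sign is no sign of stability. The median of the 7 was 5.31 with the listed total (a shift of -0.37), 5.85 with TMM factors (a shift of 0.17) and 6.99 after centring. The median of the MITF target list became 9.02, that of the SOX10 list 6.94, that of the PAX3 list 3.45 and that of the lineage regulators -0.72 after centring. The PAX3 median was also 1.77 with the listed total, 2.31 with TMM factors and 2.37 with library B alone. The lower lineage regulators numbered 4 after centring, 4 at 8-fold and 2 at 16-fold. Of the 20 listed relatives 4 were higher and 10 lower by 4-fold or more, against 18.1% and 36.9% of all listed genes. The higher ones became 8 after centring, 8 at 2-fold, 8 by edgeR and 1 at 16-fold. The lower ones became 4 after centring, 5 at 8-fold and 2 at 16-fold. After centring 1831 of all 4197 listed genes were higher and 466 lower by 4-fold or more. Before centring 4.65% were higher by 16-fold or more. Shares of all listed genes at 8-fold, or lower by 16-fold, are not reported here, for relatives or for lineage regulators. edgeR's quasi-likelihood test on the recovered reads called 4197 of 4197 listed genes, the 7 factors included, at an adjusted p of 0.05 or less. It compares these 3 libraries, not the conditions, on genes already selected on them. No paired analysis was possible because the labels give 1 sample a group and no replicate numbers. Depth limits Tfap2a most, with 2 GFP negative reads.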
